A study of Vitis vinifera with 9 samples.

Results

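The comparison described here sets detached grapevine (Vitis vinifera) leaves 12 h after the start of a UV-C treatment against control leaves taken at 0 h, across all probe sets of the Affymetrix V. vinifera Genome Array. Its members were chosen by the sample titles and are 6 of the 9 arrays of the study, 3 at 12 h and 3 of the control. The other 3 arrays are of leaves taken at 6 h, and they are used to say where the later time differed from the earlier one. All groups were mature, 30-day-old leaves of the cultivar 'Hongbaladuo', cut in the morning, held with the petiole in water and first kept in the dark at 25 °C. Both treated groups then had their lower surface exposed to 6 W per square metre of UV-C for 10 min, and every replicate pooled 6 leaves. No untreated leaves kept for 12 h were part of the design, so UV-C cannot be told apart from the time since detachment or the time of day in any value below. Whether the leaves stood in light or darkness between exposure and sampling is not given in the sources used here, which touches the photosynthesis and light signalling genes most directly. In whole leaves, fewer cells of a type and less RNA per cell cannot be told apart either.

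UV-C is short-wave ultraviolet light that is absorbed by DNA and RNA and damages them, and in grapevine leaves it is widely used to make the tissue form resveratrol, a stilbene that acts as a phytoalexin. Stilbenes are built from phenylalanine, which the shikimate pathway supplies and the phenylpropanoid pathway converts, and stilbene synthase competes with chalcone synthase, the first enzyme of the flavonoids, for the same substrates. A mature leaf otherwise spends much of its transcription on photosynthesis, whose proteins are encoded partly in the nucleus and partly in the plastid genome.

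After 12 h, 2410 of 16436 probe sets were higher than in the control, 14.7% of those tested, and 2881 were lower, 17.5%. With each array centred on its median the counts were 2787 and 2601, so the direction that was more frequent depended on the scale. Calls required a change of at least 2-fold and an adjusted p under 0.05 (limma, Benjamini-Hochberg over all probe sets). Values are RMA intensities, a unit of array brightness, and errors of log2 changes are standard errors of the fit with n = 3 arrays per group. The median log2 change over all probe sets was 0.05. Large increases were more common than equally large decreases at the extreme: 50 probe sets rose and 4 fell at least 100-fold, whereas 972 rose and 1360 fell at least 4-fold. The highest rise was 754-fold and the deepest fall 146-fold. Calls depended on level: among the 1644 dimmest probe sets 0.182% were called higher and 0% lower, against 25.5% and 20.9% of the 1644 brightest. Mean intensities of those dimmest ones were 4.5 to 8.34. Several genes named below read close to that level in 1 group, where the size of a fold is less certain than its direction. The arrays of the 2 groups did not overlap for 10592 probe sets, 64.4% of those tested. A name was at hand for only part of the array: 67.1% of the probe sets tested had none, among them 38.8% of those that rose and 41.6% of those that fell. Where 1 gene symbol had 2 or more called probe sets, they were called in 1 direction for 495 of 496 symbols. The exception, LOC100245367, was picked after its values were seen and is named an 11-beta-hydroxysteroid dehydrogenase-like protein, with log2 changes of 3.87 and -1.68.

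**Figure D1:**
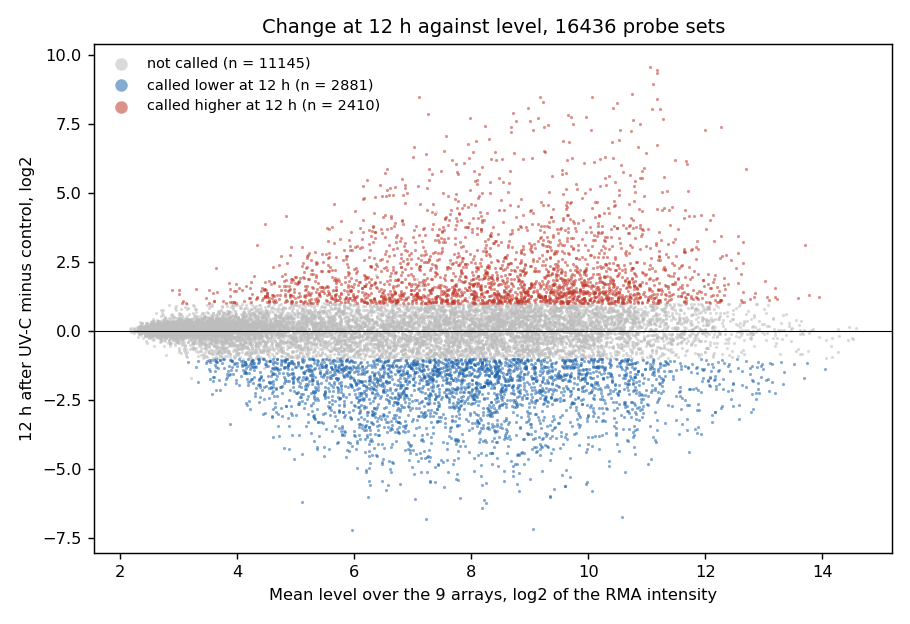
Log2 change at 12 h against the control for each of 16436 probe sets (vertical axis) plotted against its mean level over the 9 arrays in log2 of the RMA intensity (horizontal axis). Red points are the 2410 probe sets called higher, blue points the 2881 called lower, and grey points those not called, which make up nearly the whole dim end at the left.

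Arrays of 1 group correlated at 0.988 or higher over all probe sets, and control arrays correlated with those at 12 h at 0.853 to 0.867. Single genes still varied within groups: the 3 control arrays spanned at least 4-fold for 142 probe sets, 97 of which were called at 12 h, and control replicate 1 stood farthest from the other two for 96 of the 142 and replicate 3 for 40. Markers of leaf mesophyll were present in the control, where members of the photosystem list had a median intensity of 9494. Of 4 probe sets named after seed storage proteins, 3 rose, with a median log2 change of 1.31, and a search for phloem proteins found no members. What part those seed-type genes had in other results was not tested.

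Gene groups were drawn by word searches of the gene titles and target descriptions, and 67 groups had members. Described probe sets were called more often than the whole array, 22.9% higher and 26.4% lower at 12 h. They were also brighter, with a median level of 482 against 47.3 for the others, and the part of brightness in the calls was not tested. At 6 h the shares were 17.4% and 22.3% of the described probe sets, and 11.9% and 14.7% of all. Stilbene synthases, chitinases, the entry enzymes of phenylpropanoids, the shikimate pathway and protein folding in the endoplasmic reticulum lay at the rising end. Lipid transfer proteins, cytochrome P450s, wall enzymes, plastid ribosomes and photosystems lay at the falling end. Receptor-like kinases were split almost evenly, with 14 higher and 11 lower of 29. All 29 were without overlap between the groups, against 64.4% of all probe sets tested.

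**Figure D2:**
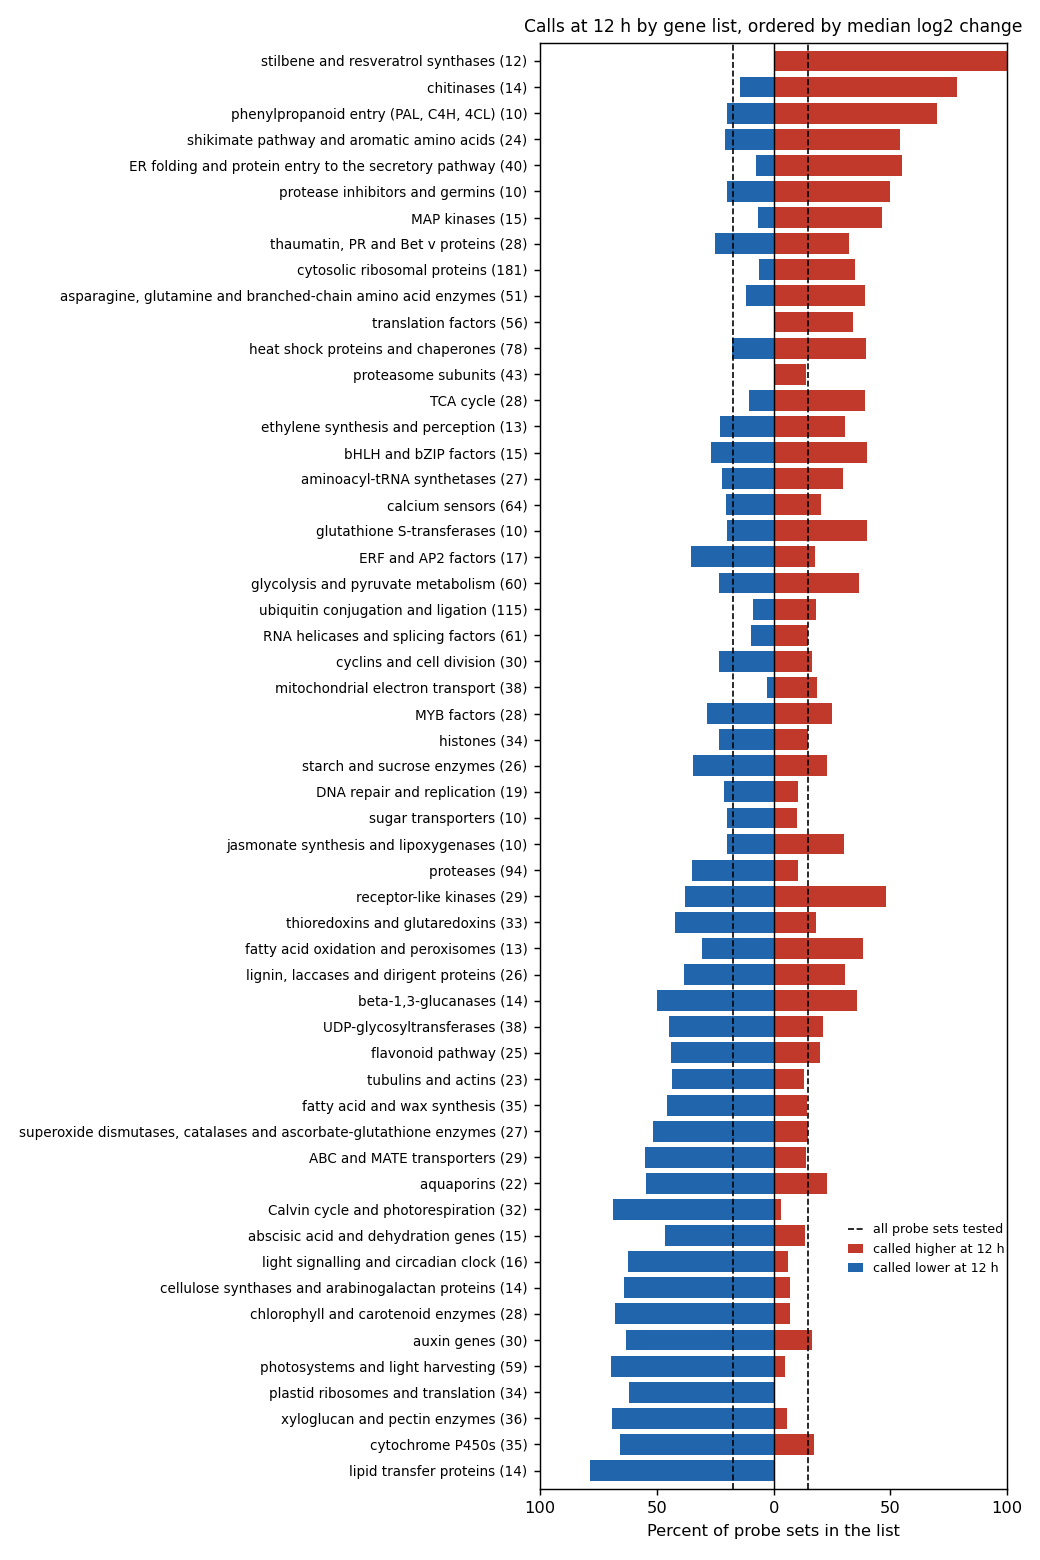
Percent of the probe sets of each gene list called higher (red, to the right) or lower (blue, to the left) at 12 h than in the control, for the 55 lists with 10 or more members, ordered by median log2 change, with the number of members in brackets. Dashed lines mark the 14.7% and 17.5% over all probe sets tested; all 12 stilbene and resveratrol synthase probe sets were higher, and 11 of 14 lipid transfer protein probe sets were lower.

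Genes on the route to stilbenes were mostly higher at 12 h, and those of its side branches were mixed. Of 24 probe sets of the shikimate pathway and aromatic amino acids, 13 rose and 5 fell (median log2 change 1.55). DAHP synthase (LOC100258475), which opens the shikimate pathway, read 272, 538 and 950 on the control arrays and 9532, 10622 and 7786 at 12 h. All 3 treated arrays were far above the control, whose own arrays spanned more than 3-fold. The change was 17.8-fold (log2 4.16 ± 0.36, adjusted p = 4.54e-06). Dehydroquinase-shikimate dehydrogenase (LOC100243536), which makes shikimate in the middle of the pathway, read 18.6, 22.1 and 26.1 in the control, 165, 183 and 161 at 6 h and 942, 1040 and 980 at 12 h. Its arrays formed 3 separate steps without overlap, and the later step was itself significant (12 h minus 6 h, log2 2.54, adjusted p = 1.95e-05). Anthranilate phosphoribosyltransferase (LOC100265626), an enzyme of the tryptophan branch, moved the other way, from 527, 643 and 667 to 37.1, 24.4 and 40.6. That fall of 18.3-fold (log2 -4.20 ± 0.19, adjusted p = 4.69e-08) left no overlap between the groups.

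Among the entry enzymes of the phenylpropanoids, 7 of 10 probe sets rose and 2 fell. Phenylalanine ammonia-lyase, which turns phenylalanine into cinnamate, was present in forms that moved in opposite directions. The form LOC100241377 read 854, 826 and 1172 in the control and 8507, 7880 and 6077 at 12 h, 7.90-fold higher (adjusted p = 1.81e-07). In the form LOC100241575, annotated by its likeness to PAL4 of Arabidopsis, the values went from 1676, 2526 and 3206 to 722, 729 and 743. The treated arrays were close together and below all control arrays, a fall of 3.26-fold (log2 -1.71 ± 0.26, adjusted p = 2.33e-04). A further form, LOC100233012, fell by 2.22 ± 0.23 on the log2 scale. Cinnamate 4-hydroxylase (LOC100253493), the next enzyme, read 189, 243 and 722 in the control and 6705, 7703 and 5534 at 12 h. Control replicate 3 stood above the other control arrays but still far below the treated ones, and the rise was 20.5-fold (adjusted p = 2.27e-05).

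All 12 stilbene and resveratrol synthase probe sets were higher, with log2 changes from 3.05 to 9.56 and a median of 7.85. The steepest (LOC100253166) went from 28.5, 28.6 and 29.3 to 22029, 21297 and 21821, with both groups tight. Members of this family are near-identical, and probes of 1 probe set may read several genes, so the 12 are not 12 independent genes. Without the probe sets that may match several transcripts the median was 6.21. MYB14, a factor known in grapevine to activate stilbene synthase promoters, read 18.5, 13.2 and 16.7 in the control and 3586, 3428 and 3141 at 12 h. The groups lay more than 100-fold apart (212-fold, log2 7.73 ± 0.17, adjusted p = 1.11e-09).

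The flavonoid pathway, which shares the substrates of stilbene synthase, had 5 higher and 11 lower of 25 probe sets (median log2 change -0.87). Chalcone isomerase (CHI), its second enzyme, read 817, 1354 and 1788 in the control and 13153, 14866 and 13064 at 12 h, a rise of 10.9-fold (adjusted p = 7.65e-07). The study lists another probe set of the chalcone isomerase family as lower at 12 h. Chalcone synthase (CHS), the first enzyme, fell, with a log2 change of -3.47. Without control replicate 3 it was -2.71, and without control replicate 1 it was -4.23. Flavonoid 3'5'-hydroxylase (F3'5'H), which adds hydroxyl groups on the way to blue anthocyanins, went from 2100, 3319 and 6717 to 259, 148 and 240. The control arrays differed from each other by more than 3-fold, yet the lowest was still above all treated arrays (log2 -4.10 ± 0.37, adjusted p = 5.66e-06). Flavonol synthase (LOC100232938), which makes flavonols, fell from 840, 1239 and 991 to 57.3, 42.7 and 55.4, or 19.7-fold (adjusted p = 3.26e-08). The study lists another flavonol synthase probe set as higher at 12 h. A leucoanthocyanidin dioxygenase-like gene (LOC100264239), of the same family of oxygenases, rose from 30.9, 29.1 and 21.4 to 4132, 4102 and 6014 (174-fold, adjusted p = 3.26e-09). Rising and falling genes therefore stood side by side within 1 enzyme family. In the lignin group 8 probe sets rose and 10 fell of 26: a caffeic acid O-methyltransferase-like gene (LOC100264014), which methylates monolignol precursors, rose 13.1-fold, and a dirigent protein (LOC100260405), which guides the coupling of phenolic radicals, fell 15.7-fold.

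Among defence proteins secreted to the cell wall or vacuole, chitinases mostly rose and other families were mixed. Chitinases, which cut fungal chitin, had 11 higher and 2 lower of 14 (median log2 change 3.19). The class IV chitinase CHI4D read 63.4, 56.3 and 42.1 in the control and 18274, 17422 and 18873 at 12 h, 342-fold higher (adjusted p = 1.08e-09). A gene annotated as a basic chitinase (LOC100266937) went from 4638, 4675 and 5944 to 1019, 1263 and 1225. The groups were apart, and the fall was 4.34-fold (adjusted p = 5.94e-07). The study lists a basic chitinase probe set as higher at 12 h. Its only lower chitinase probe set is named a chitinase-like protein there, so this fall does not stand for basic chitinases.

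Beta-1,3-glucanases, which cut callose and fungal glucans, split into 5 higher and 7 lower of 14. The riser LOC100260160 read 91.4, 68.6 and 26.8 in the control, 2500, 4041 and 2824 at 6 h and 14064, 15567 and 15597 at 12 h. It climbed in 2 steps, and the second was significant (12 h minus 6 h, log2 2.30, adjusted p = 2.00e-03). LOC100261876 fell from 417, 411 and 637 to 21.1, 19.6 and 20 (23.6-fold, adjusted p = 7.42e-08) and had already reached that level at 6 h, where its arrays read 18.7, 27.4 and 16.1.

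Of 28 thaumatin-like, PR-1-type and Bet v 1-type probe sets, 9 rose and 7 fell, where 22.9% and 26.4% of described probe sets did. A thaumatin-like protein (LOC100242737), of the PR-5 family, read 1036, 585 and 222 in the control and 30318, 29772 and 29265 at 12 h. Another thaumatin-like protein (LOC100247111) fell from 4456, 4432 and 4205 to 91.4, 114 and 80.1. The first was 58.1-fold higher (log2 5.86, or 5.26 without control replicate 3, adjusted p = 1.52e-06) and the second 46.4-fold lower (adjusted p = 9.04e-09), and neither overlapped its control. The same held for a pair of pathogenesis-related genes: LOC100242852 rose 40.6-fold and LOC100256515 fell 44-fold, the latter from 9047, 9738 and 10127 to 179, 229 and 255. Protease inhibitors and germin-like proteins, wall glycoproteins some of which are oxidases, had 5 higher and 2 lower of 10 (median log2 change 0.93, highest 8.47). Germin-like GER7 was the highest of them, as given with the later genes, and GER6 fell from 16093, 15379 and 17870 to 2497, 3557 and 2993 (5.50-fold, adjusted p = 4.39e-07).

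**Figure D3:**
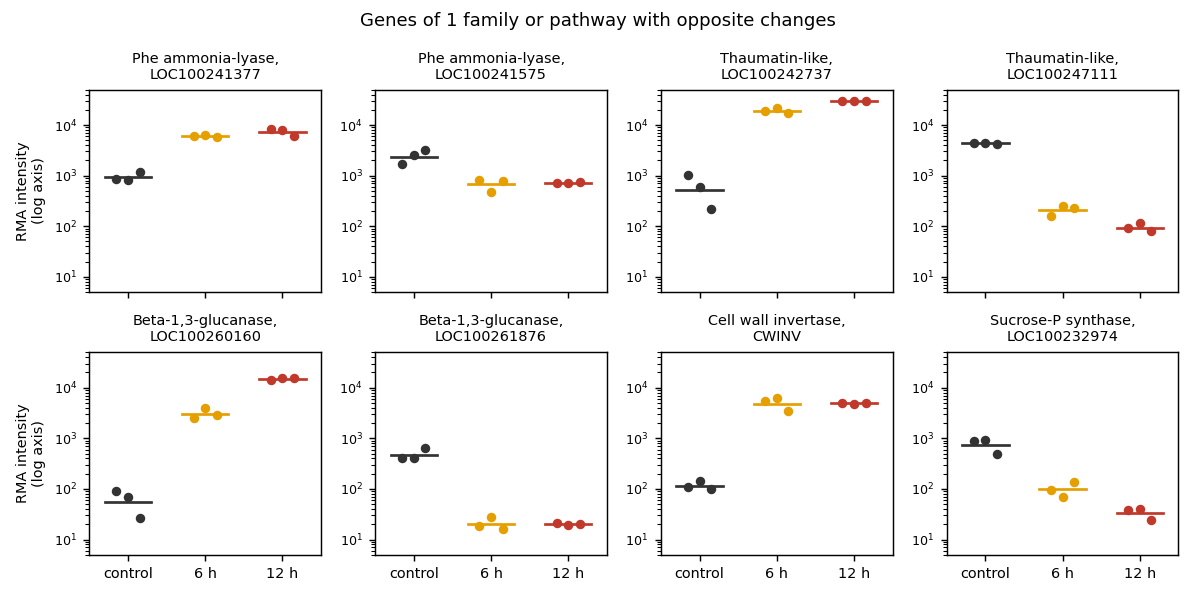
RMA intensity of 8 genes on each of the 3 control, 6 h and 12 h arrays (points, logarithmic vertical axis), with bars at the geometric mean of each group. Phenylalanine ammonia-lyases, thaumatin-like proteins, beta-1,3-glucanases and sucrose enzymes each show 1 member that rose and 1 that fell, and at 12 h no point overlaps the control.

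Signalling genes were mixed by class. Shares called among MYB factors and calcium sensors were near or below those of described probe sets, 22.9% higher and 26.4% lower. WRKY factors bind W-box elements of defence genes, and the word search found only the 7 probe sets named so in the title or description. Of these 4 rose and 1 fell (none without control replicate 2): LOC100232957 read 9.90, 8.14 and 7.51 in the control and 680, 613 and 720 at 12 h (79.1-fold, adjusted p = 2.68e-09). Treated arrays were far above the control, whose values lay near the floor of the array. MAP kinases, which relay stress signals by phosphorylation, had 7 higher and 1 lower of 15. MPK3 (LOC100263976), a kinase of early defence signalling, rose from 664, 221 and 258 to 4872, 4576 and 3905 (13.2-fold, adjusted p = 6.44e-06). Heat stress factors had 4 higher and none lower of 7, with LOC100247320, titled after HSF4 of Arabidopsis, 25-fold higher. MYB factors had 7 higher and 8 lower of 28, and a MybSt1-type factor (LOC100253576) fell from 11926, 12819 and 11544 to 863, 761 and 931. The groups did not overlap, and the fall was 14.2-fold (adjusted p = 1.49e-08). ERF and AP2 factors, some of which answer to ethylene, had 3 higher and 6 lower of the 17 that the search found, with 5 higher without control replicate 1. The highest of these changed by 3.66 in log2. Ethylene responsive element binding factor 1, which the study lists as a stronger riser, was not among them. These counts therefore do not describe the family as a whole. Calcium sensors had 13 higher and 13 lower of 64: calcineurin B-like protein 01 (CBL01) rose 5.58-fold, whereas CIPK16, a kinase of the type that such sensors bind, fell 26.5-fold.

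Hormone genes fell mainly on the auxin side. Over described probe sets 22.9% were called higher and 26.4% lower, and shares of the ethylene and jasmonate lists lay near these. Of 30 auxin probe sets 19 fell and 5 rose (median log2 change -1.71). IAA16 (LOC100250231), a repressor of auxin responses that auxin itself induces, went from 6507, 6568 and 7650 to 319, 353 and 408. This was a 19.2-fold fall without overlap (adjusted p = 3.64e-09). A gene titled auxin transport protein REH1 (LOC100253234) was an exception and rose from 133, 140 and 311 to 1058, 973 and 962, with 74.7, 122 and 133 at 6 h. BR6OX1, which makes active brassinosteroids, fell from 657, 549 and 408 to 43.8, 41.6 and 54.3 (adjusted p = 1.95e-06). Ethylene genes had 4 higher and 3 lower of 13. The ethylene-forming enzyme (LOC100256784) rose 32.4-fold, from 303, 167 and 117 to 6608, 5240 and 5830, and the ethylene receptor EIN4 (LOC100254638) fell 2.55-fold. Of 10 jasmonate and lipoxygenase probe sets 3 rose and 2 fell (median log2 change -0.38), and leaving out 1 array gave 1 to 5 lower, with 5 without 12 h replicate 1. Allene oxide synthase (LOC100267750), which commits lipids to jasmonate, rose 46.5-fold, from 190, 154 and 132 to 8642, 8533 and 5281. Of 15 abscisic acid and dehydration genes 7 fell and 2 rose, with 1 higher when any of 6 arrays was left out in turn. RD22-like protein (LOC100233124), which drought induces in Arabidopsis, fell from 9718, 9652 and 7263 to 492, 600 and 385 (18.2-fold, adjusted p = 3.18e-08).

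Genes of protein folding rose more often than they fell, and those of proteases fell more often. Of 40 probe sets for folding in, or entry to, the endoplasmic reticulum, where secreted proteins mature, 22 rose and 3 fell after 12 h, against 13 and 3 after 6 h. Luminal binding protein (BiP, LOC100253826), its main chaperone, read 48.1, 39.8 and 53 in the control, 147, 133 and 123 at 6 h and 729, 962 and 445 at 12 h. Calnexin (LOC100259611), a chaperone of glycoproteins there, read 34.3, 25.4 and 34.4, then 71, 66 and 62, then 365, 514 and 359. Both rose in 2 steps with no overlap between any of the times, 14.5-fold and 13.1-fold in all (adjusted p = 4.81e-07 and 5.59e-08). Heat shock proteins and chaperones of all compartments had 31 higher and 14 lower of 78. A small heat shock protein (LOC100261583), which holds unfolding proteins in solution, rose 58.4-fold to 685, 647 and 791, from 12.8, 12.4 and 11.1. Another small heat shock protein, of mitochondria, (LOC100243757) rose 31.5-fold. Among those that fell were a ClpB-type chaperone (LOC100252611, 4.49-fold) and a chaperonin precursor (LOC100251252, 6.33-fold), the latter from 294, 334 and 277 to 58.3, 48 and 38.2. Proteasome subunits, which form the main protease of cytosol and nucleus, were seldom called. Of 43, 6 rose, a share close to that over all probe sets, and none fell. Their median log2 change was 0.60, and 32 of the 43 did not overlap between the groups, against 64.4% of all probe sets tested. The regulatory particle subunit LOC100258086 read 310, 316 and 328 in the control, 596, 592 and 586 at 6 h and 1096, 1006 and 1217 at 12 h. Other proteases went the other way, with 10 higher and 33 lower of 94. A subtilisin-like protease (LOC100257444), of a family secreted to the wall, fell in both of its probe sets, 27.1-fold and 17.3-fold.

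Most photosynthesis genes fell, whereas nearly all probe sets named after genes of the plastid genome changed by less than 2-fold. Of 59 probe sets of the photosystems and light harvesting, 41 fell and 3 rose (median log2 change -1.80). The light-harvesting protein of photosystem II LOC100241745 read 14053, 11207 and 12113 in the control, 6819, 4000 and 5197 at 6 h and 753, 476 and 581 at 12 h. No 2 times overlapped, and the fall of 20.9-fold came mostly between 6 and 12 h (12 h minus 6 h, log2 -3.14, adjusted p = 3.76e-05). LHCA1, of photosystem I, fell in 1 of its probe sets from 5760, 4530 and 5068 to 154, 97.9 and 149 (log2 -5.28). The 3 that rose are not photosystem or antenna proteins in all cases: they were a ferredoxin (LOC100251971), which carries electrons to several pathways and at log2 1.00 lay on the threshold, a ferredoxin-dependent sulfite reductase (LOC100245032), which assimilates sulfur, and a probe set for which sources gave conflicting names.

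In the Calvin cycle and photorespiration 22 of 32 fell and 1 rose (none without 12 h replicate 2). Rubisco activase (LOC100266698), which frees the active site of Rubisco, went from 7356, 5196 and 6293 to 577, 365 and 288 (15.8-fold, adjusted p = 2.33e-06). The small subunit of Rubisco itself (LOC100267942) read 19765, 19551 and 19797 in the control and 15960, 17817 and 16441 at 12 h. Its groups did not overlap, but the log2 change was only -0.24 ± 0.08 (adjusted p = 3.51e-02), below the 2-fold threshold. The highest value on the control arrays was 27313, so this probe set lay near the top of the scale, and whether its signal was compressed there was not tested. A fructose bisphosphate aldolase (LOC100262354), an enzyme shared by carbon fixation and glycolysis, fell 9.78-fold, from 14002, 12160 and 13152 to 1428, 1715 and 977.

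Enzymes of chlorophyll and carotenoids had 19 lower and 2 higher of 28. The H subunit of magnesium chelatase (CHLH), which places magnesium in the chlorophyll ring, read 4441, 3454 and 4840 in the control, 1472, 1517 and 1651 at 6 h and 491, 456 and 361 at 12 h. It fell by steps, 9.71-fold in all (adjusted p = 6.87e-08). Beta-carotene hydroxylase, which makes xanthophylls, had 2 genes that went apart. LOC100268009 fell 13.2-fold, from 2815, 2021 and 2656 to 249, 143 and 186, and BCH1 rose 4.55-fold, from 24.4, 21.2 and 20 to 161, 33.5 and 180. The arrays of BCH1 at 12 h were uneven, with replicate 2 close to the control (log2 2.19, or 2.97 without that array, adjusted p = 8.51e-03).

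Plastid ribosomal proteins and plastid translation had 21 lower and none higher of 34. Protein S6 of the plastid ribosome (LOC100244408) fell from 1926, 1641 and 1835 to 117, 150 and 129, and protein L34 (LOC100258321) from 7110, 6423 and 6356 to 545, 600 and 548. Both fell more than 10-fold with tight arrays (13.7-fold and 11.7-fold, adjusted p = 1.93e-08 and 5.24e-09).

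Genes of the plastid genome were set apart after values had been seen, as the 46 probe sets whose description names an Arabidopsis protein encoded there. They included 8 photosystem subunits, 7 of the ATP synthase, 6 ribosomal proteins and 6 of the plastid RNA polymerase. Of the 46, none rose and 1 fell, an open reading frame of the ycf1 type (log2 -2.06). Their median log2 change was -0.05, and the other 45 changed by less than 2-fold. Of the 46, 13 did not overlap between the groups, against 64.4% of all probe sets tested. Without these genes, the photosystem list had 41 lower of 51 with a median of -2.11, and the plastid ribosome list 21 lower of 28 with a median of -2.14. The probe set for the A2 protein of photosystem I (PSAB of Arabidopsis, LOC100263959) changed by 0.01 ± 0.08, and that for the large subunit of Rubisco (RBL, LOC100247906) by 0.26 ± 0.19. The median intensity of the 46 in the control was 2984, but members ranged widely. A ribosomal protein S18 probe set read 72.9, 78.8 and 72.8, and an ATP synthase beta chain probe set 18777, 19486 and 18401. The latter lay near the top of the scale, like the Rubisco small subunit, and compression there was not tested. Several of the 46 carry LOC gene symbols, and whether each reads a plastid transcript was not tested. The study amplified the RNA before hybridization (MessageAmp Premier kit). Whether that step copies plastid transcripts as it does nuclear ones was not tested, so the contrast with nuclear genes may partly be one of labelling. Because these 46 were chosen with their values known, no test of them was made.

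**Figure D4:**
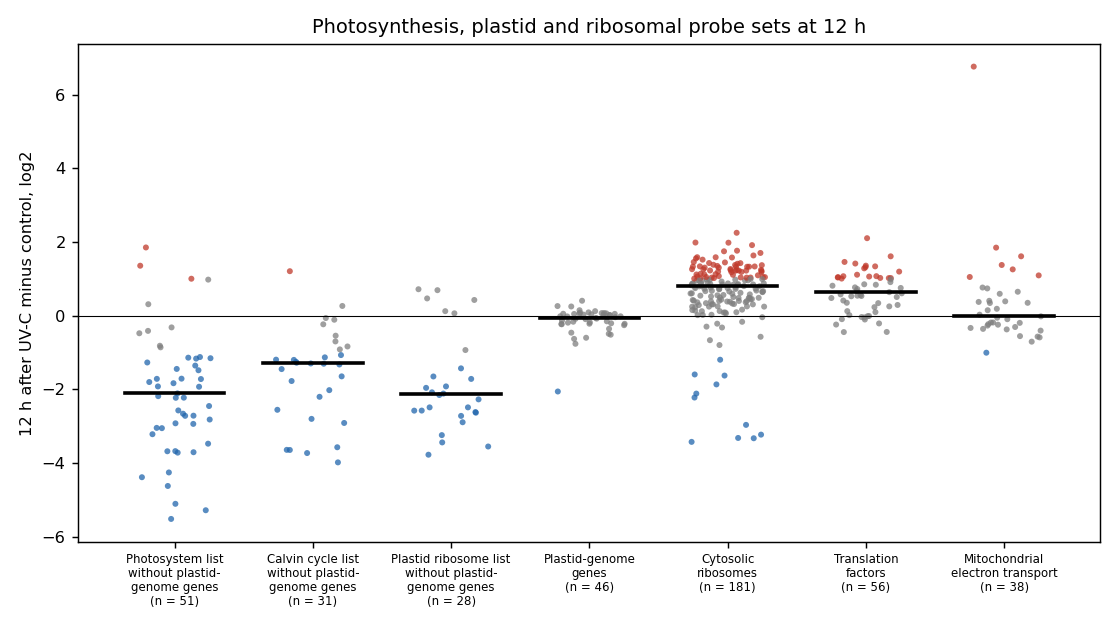
Log2 change at 12 h against the control (vertical axis) for each probe set of 7 groups (points, spread sideways for sight only; red called higher, blue called lower, grey not called), with a black line at each median. The 46 plastid-genome probe sets lie close to 0, while the photosystem and plastid ribosome lists without them have medians of -2.11 and -2.14 and the cytosolic ribosomes lie above 0.

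Cytosolic ribosomal proteins rose by small amounts at 12 h. Of 181 probe sets, 63 were higher and 11 lower (median log2 change 0.79). Of these 181, 157 had no overlap between the groups, against 64.4% of all probe sets tested. After 6 h, 3 had risen and 9 had fallen. Between the times, 12 were higher and 5 lower at 12 h. Protein L6 of the large subunit (LOC100257150) rose 4.75-fold, from 664, 538 and 777 to 2942, 3060 and 3309, and protein S12 of the small subunit (LOC100255187) 3.95-fold, from 565, 555 and 666 to 2147, 2217 and 2705. Protein L3 (LOC100267716) read 616, 546 and 798 in the control, 1242, 1469 and 1113 at 6 h and 2606, 2627 and 2400 at 12 h, a rise of 3.94-fold (adjusted p = 2.11e-06). The later step was significant for L3 (log2 1.01, adjusted p = 1.30e-03). The 11 that fell have titles that do not give a compartment, such as ribosomal protein L13 (LOC100248623), which fell 10.1-fold, so that some may belong to organelles. Translation factors had 19 higher and none lower of 56. The beta subunit of eIF-2 (LOC100263785), which brings the first tRNA to the ribosome, rose from 1072, 957 and 1199 to 4268, 4878 and 4663. Of 4 nucleolar and ribosome assembly genes, all 4 rose at 12 h and none was called at 6 h. The lowest of them was at log2 1.00, and 3 were called without control replicate 1, without 12 h replicate 1 or 2, or with arrays centred on hybridization controls. Fibrillarin 2 (LOC100266267), which methylates ribosomal RNA, read 393, 386 and 481 in the control and 1114, 1426 and 1395 at 12 h (3.12-fold, adjusted p = 2.76e-05). A pescadillo-like protein (LOC100262902), needed to form the large subunit, rose 2.66-fold. Aminoacyl-tRNA synthetases had 8 higher and 6 lower of 27, shares near the 22.9% and 26.4% of described probe sets. The glutamate--tRNA ligase (LOC100263087) rose 7.12-fold, from 344, 321 and 387 to 2601, 2640 and 2256.

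Redox genes fell more often than they rose. Of 27 probe sets of superoxide dismutases, catalases and the ascorbate-glutathione cycle, 14 fell and 4 rose (median log2 change -1.15). A stromal ascorbate peroxidase (LOC100254009), which removes peroxide in plastids, went against most of that list: it rose from 1121, 801 and 992 to 2607, 2992 and 2259 (2.70-fold, adjusted p = 3.17e-05). The study also lists thylakoidal ascorbate peroxidases as higher at 12 h, so this rise was not particular to the stromal form. Glutathione reductase (LOC100254507), annotated as the cytosolic form, read 513, 494 and 522 in the control, 747, 730 and 756 at 6 h and 1710, 1680 and 1469 at 12 h. Its arrays were tight and separate at every time. Thioredoxins and glutaredoxins had 14 lower and 6 higher of 33, and the plastid thioredoxin of the M type LOC100264263 fell from 12165, 11706 and 11549 to 1030, 1243 and 807 (11.7-fold). A peroxiredoxin (LOC100250698), which reduces peroxides with thioredoxin, fell 11.6-fold. Glutathione S-transferases, which attach glutathione to toxic compounds, had 4 higher and 2 lower of 10, against 7 higher and 2 lower at 6 h. GST1 rose 55.9-fold, from 22.5, 18.5 and 19.7 to 1007, 773 and 1840.

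Central carbon metabolism rose more often than it fell. Glycolysis and pyruvate metabolism had 22 higher and 14 lower of 60. A glyceraldehyde-3-phosphate dehydrogenase (LOC100264789) went from 146, 212 and 113 to 7942, 7872 and 9139, while alcohol dehydrogenase 2 (LOC100261140), an enzyme of fermentation, fell from 2156, 3577 and 3408 to 99.4, 135 and 112 (25.9-fold, adjusted p = 8.18e-08). The TCA cycle of mitochondria had 11 higher and 3 lower of 28. Aconitate hydratase (LOC100256776), which isomerises citrate, read 63.6, 64.2 and 120 in the control and 6376, 6818 and 5274 at 12 h, a 77.6-fold rise with no overlap (adjusted p = 1.74e-08). One of those that fell was a malate dehydrogenase annotated to glyoxysomes (LOC100253198), not to the cycle itself, from 5105, 3804 and 4223 to 723, 803 and 538. Of 38 probe sets of mitochondrial electron transport, 7 rose and 1 fell around a median of 0.00. The share that rose was below the 22.9% of described probe sets, and the fall lost its call without control replicate 3 or 12 h replicate 1. Alternative oxidase 1b (LOC100252878), which takes electrons from ubiquinone without pumping protons, had the largest change of them, with 1390, 1386 and 1391 against 12.1, 12.6 and 13.8 in the control (108-fold, adjusted p = 7.58e-10).

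Of 26 starch and sucrose probe sets, 6 rose and 9 fell, where 22.9% and 26.4% of described probe sets did. The cell wall invertase CWINV, which splits sucrose outside the cell, rose from 107, 145 and 100 to 5085, 4745 and 4924, and the neutral invertase NIN1, which splits it inside, from 460, 291 and 260 to 12380, 10783 and 9649. At 6 h their arrays already read 3447 to 6160 and 9797 to 11256. Sucrose-phosphate synthase (LOC100232974), which makes sucrose, fell from 884, 915 and 482 to 38.5, 39.4 and 24.1 (22-fold, adjusted p = 1.26e-06). A sugar transporter (LOC100263109) rose 15.5-fold, from 57.2, 68.4 and 52.9 to 781, 1251 and 791, and another (LOC100260552) fell 8.55-fold.

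Amino acid enzymes of the asparagine, glutamine and branched-chain groups had 20 higher and 6 lower of 51, against 12 and 2 at 6 h. Phosphoserine aminotransferase (LOC100244017), of serine synthesis, rose 22.7-fold, from 296, 306 and 441 to 7432, 8703 and 7247. Asparagine synthetase (LOC100241610), which stores nitrogen as asparagine, read 18.3, 21.8 and 21.5 in the control and 2044, 453 and 1559 at 12 h. The treated arrays spanned more than 4-fold, all above the control (55.2-fold, log2 5.79, or 6.45 without 12 h replicate 2, adjusted p = 3.12e-04). A branched-chain aminotransferase (LOC100247990) read 458, 246 and 17.2 in the control and 7556, 6034 and 6464 at 12 h. Control replicate 3 lay far below the other two, so its 53.4-fold rise carries a wide error (log2 5.74 ± 0.99, adjusted p = 5.95e-04). The log2 change was 4.31 without that array and 6.68 without control replicate 1. Alanine-glyoxylate aminotransferase (LOC100261927), of photorespiration, fell 3.43-fold from 16808, 14498 and 15355, and glutamate dehydrogenase 1 (LOC100250450) fell 3.30-fold.

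Lipid and surface genes fell more often than they rose. Fatty acid and wax synthesis had 16 lower and 5 higher of 35, and of 14 lipid transfer proteins, which carry lipids to the cuticle, 11 fell and none rose. An omega-6 desaturase (LOC100258789), which makes polyunsaturated fatty acids, fell from 2176, 2364 and 2723 to 47, 29.9 and 35.4 (65.5-fold, adjusted p = 3.26e-09). A nonspecific lipid transfer protein (LOC100265591) fell from 563, 1098 and 1106 to 31.6, 17.1 and 37.8. Both were without overlap.

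Wall and skeleton genes fell more often than they rose. Expansins, which loosen the wall, had 7 lower and none higher of 8 (median log2 change -3.61), xyloglucan and pectin enzymes 25 lower and 2 higher of 36, and cellulose synthases and arabinogalactan proteins 9 lower and 1 higher of 14. Cellulose synthase (LOC100264115) fell from 3013, 3118 and 3473 to 308, 324 and 334 (9.92-fold, adjusted p = 4.20e-09). Among xyloglucan enzymes, which cut and rejoin the polymers that tie cellulose fibres, LOC100255642 fell from 1288, 1046 and 1281 to 42.4, 48.4 and 50.4, and LOC100267763 rose 6.33-fold, from 190, 149 and 79.1 to 879, 942 and 684. Tubulins and actins had 10 lower and 3 higher of 23: tubulin beta-1 (LOC100259087) fell 13.1-fold, from 2402, 3043 and 2655 to 182, 199 and 241. Its partner type tubulin alpha-6 (LOC100262687) rose in both of its probe sets, in 1 of them from 25.5, 24.1 and 39.2 to 575, 412 and 570. Cyclins and cell division, with 5 higher (3 without control replicate 2) and 7 lower of 30, had a share of lower calls below that of described probe sets as a whole, and a D-type cyclin (LOC100255261), of entry into the cell cycle, fell from 274, 320 and 266 to 18.9, 23.9 and 22.2. Histones were likewise below that share, with 5 higher and 8 lower of 34: the linker histone H1.2 (LOC100247613) rose 3-fold and a core histone H4 (LOC100261486) fell 10.9-fold, from 307, 631 and 403 to 54.9, 30.8 and 35.4.

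Membrane transport and secondary metabolism outside the stilbenes also leaned down. Aquaporins, the water channels, had 12 lower and 5 higher of 22: PIP2 of the plasma membrane type fell 42-fold, from 2194, 2432 and 1838 to 51.2, 44.2 and 58.4, and TIP2;1 of the vacuole type rose 2.60-fold, from 4450, 3636 and 4848 to 11361, 11220 and 10786. ABC and MATE transporters had 16 lower and 4 higher of 29, and a transporter of the ABC type with the symbol ABC rose 10.7-fold, from 1042, 1194 and 713 to 10607, 11156 and 9299. Cytochrome P450s, oxidases of many pathways, had 23 lower and 6 higher of 35. The P450 LOC100245465 fell from 1400, 1545 and 2026 to 50.1, 53.7 and 72.6 (28.2-fold, adjusted p = 5.95e-08). UDP-glycosyltransferases, which attach sugars to small molecules, had 17 lower and 8 higher of 38. One of them (LOC100262128) rose 75.2-fold, from 20.2, 29.1 and 12.5 to 1256, 1596 and 1567.

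Genes of DNA repair and replication were called no more often than described probe sets, and most genes that act on light fell. Over all probe sets tested 14.7% were higher and 17.5% lower, and over described ones 22.9% and 26.4%. DNA repair and replication had 2 higher and 4 lower of 19 (median log2 change -0.16), shares below those of described probe sets as a whole. Only 1 was higher with a replicate block or without control replicate 1 or 2 or any 12 h array. The photolyase-type protein PHR2 (LOC100253809), of the family of light-driven repair enzymes and blue-light receptors, fell from 2798, 2577 and 2285 to 725, 680 and 587 (3.85-fold, adjusted p = 5.27e-07). A RAD54-type helicase (LOC100253251), of recombination repair in yeast, rose 2.46-fold, from 117, 116 and 120 to 311, 310 and 253. Light signalling and clock genes had 10 lower and 1 higher of 16. A CONSTANS-type flowering gene (LOC100248114) fell from 5808, 5976 and 5649 to 457, 325 and 273, and the early light-induced protein ELIP (LOC100263179), which protects plastids in strong light, fell 11.4-fold. The 1 that rose was GIGANTEA (LOC100254197), a clock gene whose level follows the time of day in Arabidopsis, from 298, 280 and 181 to 1100, 868 and 1009. The control was sampled at another time of day than the 12 h leaves, and its part in these values cannot be told apart from the treatment.

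Between 6 and 12 h, 384 probe sets were higher at the later time (2.34% of those tested) and 746 were lower (4.54%). Among described probe sets the shares were 4.39% and 7.72%. With each array centred on the 18 hybridization control probe sets, in place of the deposited scale, the counts were 568 and 609, which moved the share of higher ones from 34% to 48.3% of the calls. The photosystem list accounted for 31 of the lower and 1 of the higher, plastid ribosomes for 11 and 1, and chlorophyll and carotenoid enzymes for 8 and 0. On the higher side stood 9 chaperones, with none lower, and 8 of the amino acid enzymes, with none lower.

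Several genes were much higher at 12 h than at 6 h. Germin-like protein GER7 read 17.2, 11.5 and 13 in the control, 29.2, 53.4 and 36.8 at 6 h and 6343, 4175 and 4322 at 12 h. Arrays at 6 h lay above the control without overlap, and the 12 h arrays were on average more than 100-fold above those at 6 h (log2 6.97, adjusted p = 1.75e-06). A sucrose synthase-like gene (LOC100249279), which splits sucrose reversibly, read 288, 242 and 457 in the control, 309, 518 and 161 at 6 h and 3419, 2069 and 2723 at 12 h. Control and 6 h arrays overlapped fully, and the later difference was 3.18 in log2 (adjusted p = 4.55e-04). The pathogenesis-related gene LOC100242852 of the opposite pair above read 225, 458 and 222 at 6 h and 3286, 3014 and 2853 at 12 h. A miraculin-type protein (LOC100255885), of the Kunitz family of protease inhibitors, read 14.5, 10.4 and 12.2 in the control, 75.6, 247 and 55.3 at 6 h and 4005, 1672 and 3468 at 12 h. Its arrays spread widely at both treated times without overlapping (log2 difference 4.82, adjusted p = 2.02e-04).

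Others kept falling. A lipid transfer protein (LOC100233106) read 15372, 16228 and 8043 in the control, 3811, 2086 and 1660 at 6 h and 116, 114 and 124 at 12 h. No 2 times overlapped, and control replicate 3 was lower than its fellows. The beta-amylase LOC100242636, which degrades starch, read 5061, 5125 and 3402, then 2428, 1816 and 2218, then 674, 683 and 570. A myb-related gene (LOC100246960) went from 3175, 2901 and 884 through 494, 473 and 679 to 87.8, 74.9 and 57.6 (12 h minus 6 h, log2 -2.90, adjusted p = 1.06e-03). In these 3 genes control replicate 3 was the lowest control array, and the calls at 12 h held without it (the myb-related gene changed by -4.80 in log2, or -5.39 without it).

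Another pattern was a rise at 6 h that was gone at 12 h. Dehydrin (LOC100232959), a protein of drying cells, read 43.4, 40.6 and 20.3 in the control, 318, 283 and 107 at 6 h and 37.8, 19.7 and 23.7 at 12 h. Those at 12 h overlapped the control (log2 -0.34 ± 0.44, adjusted p = 0.545) and lay below all 6 h arrays (log2 -3.03, adjusted p = 1.05e-03). A DC1.2-like protein (LOC100251832) read 14.8, 17.3 and 24.6, then 183, 119 and 372, then 18.1, 24.2 and 20.7. It too was back within the range of the control at 12 h.

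**Figure D5:**
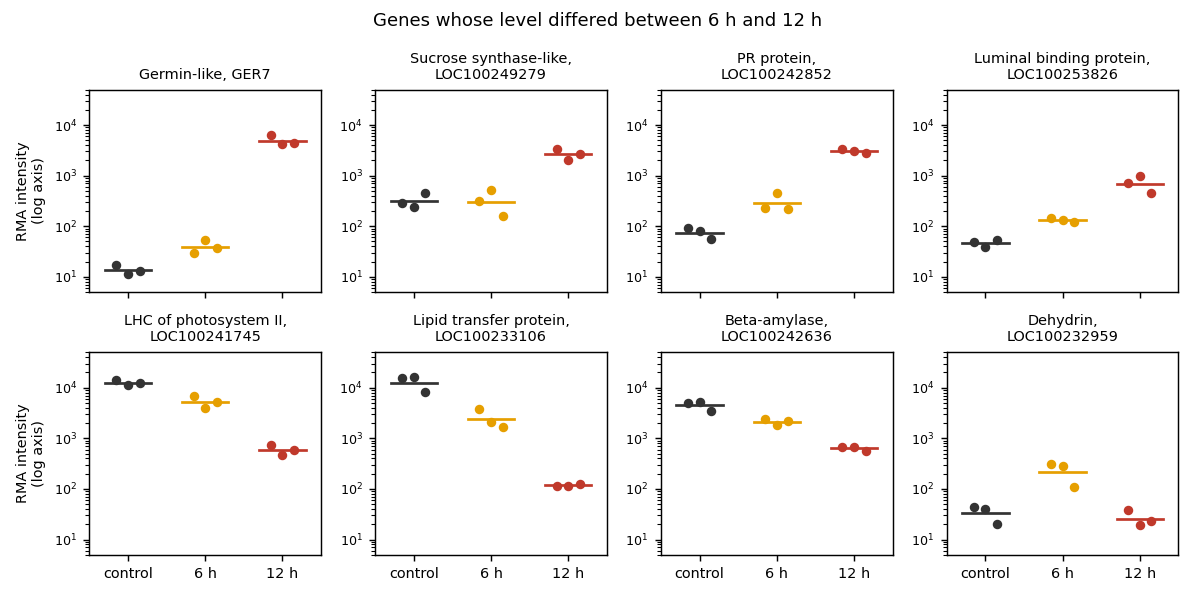
RMA intensity of 8 genes on each of the 3 control, 6 h and 12 h arrays (points, logarithmic vertical axis), with bars at the geometric mean of each group. GER7, the sucrose synthase-like gene, the pathogenesis-related gene and luminal binding protein are highest at 12 h, the light-harvesting, lipid transfer and beta-amylase genes are lowest at 12 h, and dehydrin is high at 6 h alone.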

How the data were processed

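RNA of the leaves was amplified to biotin-labelled cRNA (MessageAmp Premier kit) and hybridized to 9 Affymetrix V. vinifera Genome Arrays. The authors normalized the scans by RMA and deposited 1 intensity per probe set and array on a linear scale, and log2 was taken here. Tables of the authors' own comparisons hold a SAM score, a q-value and a fold change; only their gene titles, symbols and descriptions were used. The brightness of a probe set, not a read depth, and the 3 arrays per group limit precision.

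Of 16601 probe sets, 165 Affymetrix controls were left out. All groups entered 1 model (limma 3.58.1, lmFit and eBayes, under R 4.3.3, with 6 residual degrees of freedom), which was tested on simulated data first. P-values were adjusted over 16436 probe sets by Benjamini and Hochberg. Replicates pooled separate leaves, so p-values measure the spread between such pools.

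The gene lists came from 69 word searches, 2 of which found no member. Most gene titles read hypothetical (768 were informative), so target descriptions were searched too, which gave 4259 probe sets with either. Named genes are the 15 highest and 15 lowest changes among called probe sets that had a name and no overlap with the control. For these, lack of overlap was a condition of the choice and not a result. Also named are the 3 highest and 3 lowest called members and the brightest uncalled member of each list. Others are the 10 highest and 10 lowest of 12 h against 6 h, and those that the study's text names. The members and lists were chosen with earlier results of these data known. Alternatives were no fold threshold, the study's unadjusted p, 2 groups alone, a variance trend, the dimmest 25% left out, 3 scalings, no multi-match probe sets, averaged symbols, linear means, a replicate block, each array left out, and, chosen after seeing the data, titles alone.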

Additional observations from a re-analysis of the deposited data

Results flagged for a closer look

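The later time differed from the earlier one by the direct test of 12 h against 6 h (limma, adjusted p under 0.05 and at least 2-fold) in 384 probe sets that were higher and 746 that were lower at 12 h.

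For 2 probe sets the change against the control was called in opposite directions at the 2 times, and the direct test of the times was also called. LOC100254717, without a name in the files, read 320, 344 and 332 in the control, 1310, 763 and 714 at 6 h and 78.6, 86.3 and 115 at 12 h, and its difference between the times was -3.28 ± 0.23 in log2 (adjusted p = 3.76e-05). A serine carboxypeptidase of type II (LOC100255006) read 137, 199 and 433, then 760, 881 and 330, then 90.2, 65.2 and 119, with a difference of -2.77 ± 0.47 (adjusted p = 2.11e-03). Its control and 6 h arrays overlapped.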

How the results depend on the processing

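With no fold threshold the counts at 12 h were 4940 higher and 4733 lower than in the control, 2561 and 2158 against 6 h, and 3813 and 4873 for 6 h against the control. Every other alternative left these counts within 1.5 times. Leaving out 1 array at a time gave 2382 to 2418 higher and 2846 to 2915 lower at 12 h against the control, 363 to 435 and 670 to 780 against 6 h, and 1883 to 2015 and 2355 to 2488 for 6 h. Replicate numbers did not pair the arrays (correlations of same-numbered deviations -0.162 to 0.138), and a replicate block gave 2407 and 2878 at 12 h, 379 and 739 against 6 h, and 1948 and 2410 at 6 h. Centring each array on its median moved the median of all probe sets at 12 h from 0.05 to 0.19 in log2. Of the 158 called probe sets among the 163 refitted singly, the ferredoxin LOC100251971 lost its call with hybridization controls (log2 0.97) and without control replicate 1 or 2 or 12 h replicate 3 (0.83 to 0.98). The others kept call and direction in every alternative they could enter. The uncalled PSAB probe set changed from 0.01 to -0.02 with hybridization controls and -0.03 without 12 h replicate 3.

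List medians stayed within the spread between arrays in 1259 refits. Beside electron transport, whose median was 0.00, 9 lists had a median of the opposite sign in at least 1 alternative, in 22 refits in all. Without multi-match probe sets they were 0.58 for class III peroxidases, 1.63 for jasmonate, -0.14 for mitochondrial electron transport and 0.56 for raffinose enzymes. That of electron transport was -0.03 with hybridization controls and -0.03 to 0.04 with 1 array left out (negative without control replicate 1 or 12 h replicate 3), and that of senescence genes -0.47 to 0.20 (negative without 12 h replicate 3 and, at -0.01, without control replicate 3). From titles alone (lists of 5 or more) they were -0.34 for cyclins, 0.30 for MYB and -0.62 for bHLH and bZIP factors. The causes were not tested.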
